A study of Homo sapiens with 16 samples.

Results

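The genes described here are 8 long noncoding RNA (lncRNA) genes: PCA3, PCGEM1, SCHLAP1, ARLNC1, DRAIC, PCAT1, PCAT14 and MIR99AHG, out of 60605 gene identifiers counted in each of 2 tables. The first 7 were taken because they are known from prostate cancer, and MIR99AHG was selected on its read counts, as the most abundant gene of batch 2. That abundance is given below as a description only. All 8 were present in both tables, and all 8 passed the filter on low counts in every comparison.

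PRO-seq reads the RNA still held by transcribing RNA polymerases after a run-on reaction in nuclei, and it was applied here to LNCaP, an established androgen-responsive human prostate cancer cell line. In batch 1, mock-treated cells were set against cells given 6 Gy of ionizing radiation (IR), with replicates 1 and 2 in each group and libraries named t1 and t2 under each replicate number. In batch 2, cells received the DMSO vehicle or 10 µM enzalutamide, a drug that blocks the androgen receptor, for 90 min. The irradiated groups of batch 2 received 6 Gy after 30 min of vehicle or enzalutamide and were collected 60 min later, and each of the 4 groups had replicates 3 and 4. The labels state this time course once for the 4 arms of batch 2 and give none for the mock and IR groups of batch 1. They do not say what t1 and t2 are, nor whether replicates came from separate cultures, so p-values measure the spread between these samples, which may be technical. All groups are 1 cell line kept in medium with serum.

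LncRNAs are transcribed by RNA polymerase II but are not translated, and several of them are restricted to the prostate or are controlled by the androgen receptor. PCA3 is measured in urine as a marker of prostate cancer. SCHLAP1 is known for its high level in aggressive tumours, PCGEM1 and ARLNC1 as targets or partners of the androgen receptor, and DRAIC and PCAT14 for higher levels in less aggressive disease. PCAT1 was described as a transcript raised in prostate tumours, and MIR99AHG is the host gene from which the microRNAs miR-99a, let-7c and miR-125b are cut. PRO-seq reads count polymerases on a gene, so a change in the stability of the finished lncRNA does not enter these values.

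The 3 microRNAs are shown because they are the known products of the most heavily read gene of batch 2. They are the mature 5p arms, 5′ to 3′, with the seed (bases 2 to 8) in capitals, from RefSeq on GRCh38.p14.
hsa-miR-99a-5p: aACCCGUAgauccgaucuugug
hsa-let-7c-5p: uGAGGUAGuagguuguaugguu
hsa-miR-125b-5p: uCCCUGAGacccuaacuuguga
Their seeds differ from one another: the first is shared by 3 mature microRNAs of the RefSeq table, the second by 11 and the third by 3. The hairpins lie on the plus strand of chromosome 21 inside MIR99AHG, at chr21:16539089-16539169 (MIR99A), chr21:16539828-16539911 (MIRLET7C) and chr21:16590237-16590325 (MIR125B2).

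Promoters (250 bases before to 50 after the start) could be read from RefSeq for 4 of the 8 genes: PCA3, PCGEM1, DRAIC and MIR99AHG. Shown are those of DRAIC, which passed the test for IR in batch 1, and of PCGEM1, one of the lncRNAs with the fewest reads. They were chosen because PCGEM1 holds an androgen receptor hexamer and DRAIC does not. The hexamer was searched as AGAACA on either strand (TGTTCT on the other) and is in capitals.
DRAIC, chr15:69561470-69561769, plus strand: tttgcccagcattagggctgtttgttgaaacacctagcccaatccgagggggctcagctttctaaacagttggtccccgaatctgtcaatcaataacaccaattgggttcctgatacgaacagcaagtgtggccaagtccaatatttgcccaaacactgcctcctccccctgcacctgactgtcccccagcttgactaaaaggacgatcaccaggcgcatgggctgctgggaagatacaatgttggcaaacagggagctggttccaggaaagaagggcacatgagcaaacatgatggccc
PCGEM1, chr2:192749595-192749894, plus strand: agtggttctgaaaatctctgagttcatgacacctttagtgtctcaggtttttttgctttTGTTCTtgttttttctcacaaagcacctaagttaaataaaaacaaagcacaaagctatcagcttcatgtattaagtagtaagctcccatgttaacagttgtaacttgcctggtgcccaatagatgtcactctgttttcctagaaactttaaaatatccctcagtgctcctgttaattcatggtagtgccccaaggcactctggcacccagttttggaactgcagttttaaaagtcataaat
The match in PCGEM1 starts at position -191 from the annotated start. Of the 35116 promoters in the same table, 14.8% hold such a match. The 2 PCA3 promoters held none, and 1 of the 6 MIR99AHG promoters held 1. The match is a description of these letters and not a binding site.

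Depth was lower in batch 1 (3438642 to 9363458 counts per library) than in batch 2 (10494563 to 19905824). The response to IR matched the labels in every library of batch 1: CDKN1A, the cell cycle inhibitor induced by p53, was between 36.2 and 55.1 CPM (counts scaled to the library total) in the mock libraries and between 522 and 607 CPM in the irradiated ones. The cells carried luminal prostate markers, whose 11 genes summed to 2860 to 3884 CPM per sample, while 4 leukocyte markers summed to 0.905 to 2.01 CPM, 3 basal ones to 4.23 to 9.31, 4 stromal ones to 9.38 to 15.1, 3 endothelial ones to 14.9 to 37.9 and 3 neuroendocrine ones to 5.13 to 18.1 CPM. The neuroendocrine marker CHGA was at 0 counts in all samples. Within that luminal list KLK3, which encodes prostate specific antigen, split by batch, with 127 to 209 CPM in the 8 libraries of batch 1 and 5.05 to 17.1 CPM in the 8 of batch 2. The t1 and t2 libraries of batch 1 stood apart from one another. Genes spanning 200 kb or more took 13.9% and 16.1% of the counts in the t1 mock libraries and 14.8% and 16.4% in the t2 irradiated ones, against 11.2% to 11.7% in t2 mock and 10.9% to 11.7% in t1 irradiated libraries. Results from batch 1 are therefore given with t1 and t2 summed and, where the value moved, apart.

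MIR99AHG (chr21:16070488-16631727, 561 kb in RefSeq) held the most reads of any gene in batch 2, which is how it was chosen. Levels are CPM scaled over all 12 samples, and reads in a share of this kind cannot tell fewer transcribing cells from fewer polymerases per cell. In vehicle cells it stood at 6277 and 6157 CPM, after IR at 5640 and 5401, with enzalutamide at 6348 and 5065, and with both at 4666 and 5285. The next gene of batch 2, PRKD1, averaged 2352 CPM over its 8 samples against 5605 CPM for MIR99AHG. In batch 1, which the choice did not use, MIR99AHG ranked 2 of 60605 in both groups, with 5200 and 6035 CPM in mock and 4854 and 5816 CPM in irradiated cells. Its highest group mean was that of vehicle, 6217 ± 84.7 CPM, and its lowest that of enzalutamide with IR, 4975 ± 438 CPM (SD, n = 2 each). Neighbours in that order differed by less than the larger of their SDs.

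SCHLAP1 (chr2:180692104-180916939, 225 kb) had the second most reads of the 8. Its levels were 665 and 793 CPM in mock cells, 582 and 650 after IR in batch 1, 573 and 598 in vehicle, 465 and 444 after IR with vehicle, 547 and 428 with enzalutamide, and 373 and 399 with both. The highest group was mock and the lowest was enzalutamide with IR, and the irradiated samples lay below their unirradiated partners in each arm. PCAT1 (chr8:127013154-127021014, 7.86 kb) followed the same order of groups over a narrower range, from 254 ± 23.1 CPM in mock to 163 ± 7.31 CPM (SD, n = 2 each) in enzalutamide with IR. Within batch 2 the means of its 4 groups lay between 163 and 187 CPM and each differed from its neighbour by less than the larger SD. DRAIC (chr15:69561720-69571440, 9.72 kb) was at 147 and 153 CPM in mock and 94.96 and 113 CPM after IR in batch 1. In batch 2 it was at 132 and 108 CPM in vehicle, 106 and 91.3 after IR, 118 and 99.8 with enzalutamide, and 99.0 and 82.1 with both. Mock was the one group of DRAIC that stood from its neighbour in level, vehicle, by more than the larger SD.

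The other 4 lncRNAs had few reads. PCA3 (chr9:76764436-76787569, 23.1 kb) was at 40.6 and 27.3 CPM in mock, 28.3 and 25.2 CPM after IR in batch 1, and between 9.59 and 16.3 CPM in all 8 samples of batch 2. ARLNC1 (chr16:80828735-80892596, 63.9 kb) was at 6.59 and 6.04 CPM in mock, 5.46 and 4.70 after IR in batch 1, and 1.88 to 3.46 CPM in batch 2. Both lay higher in every sample of batch 1 than in any sample of batch 2. PCAT14 (chr22:23538102-23547306, 9.2 kb), which lies in a region of retroviral origin where reads may map to several copies, held 5 to 25 counts per sample. PCGEM1 (chr2:192749845-192776899, 27.1 kb) held 4 to 20 counts per sample, so its values carry the widest counting error with those of PCAT14.

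**Figure D1:**
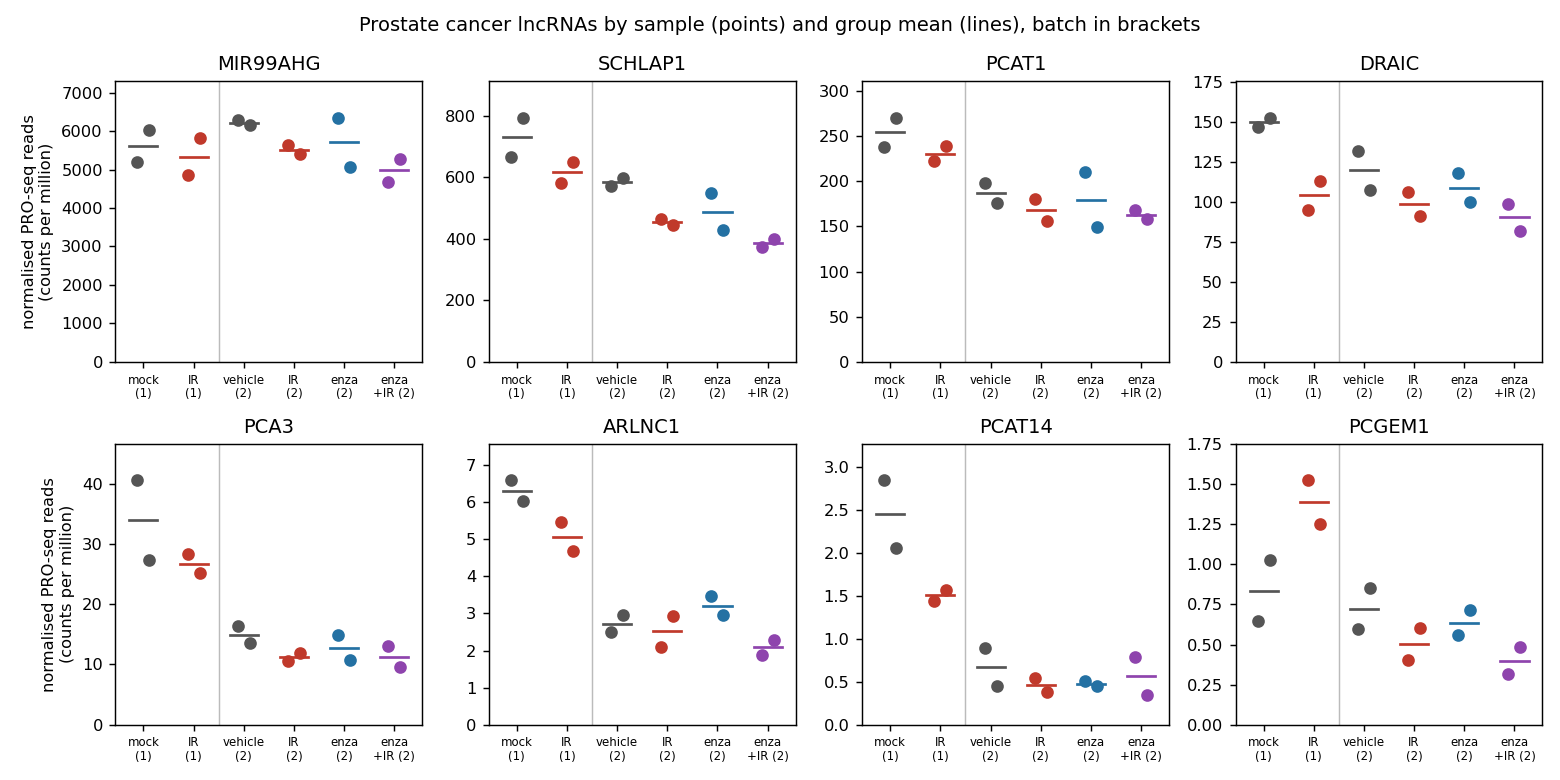
Normalised PRO-seq reads of the 8 lncRNAs in the 12 samples, with 1 panel per gene. Vertical axes, each starting at 0, are CPM, scaled by the library total and a TMM factor. Points are samples, short lines are group means over 2 replicates and the grey vertical line separates batch 1 from batch 2. MIR99AHG lies between 4666 and 6348 CPM throughout, while PCA3, ARLNC1 and PCAT14 lie higher in batch 1, and DRAIC and SCHLAP1 are lower after IR in each pair of groups by mean.

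Read totals favour long genes, so the 8 were also ranked per kb of their RefSeq span. Percentiles by CPM were taken among all 28651 genes tested in batch 2. Those by CPM per kb were taken among the 20511 of them with a span of 1 kb or more, so the sets of genes differ. MIR99AHG was at the 100th percentile by CPM and at percentile 97.5 by CPM per kb. SCHLAP1 moved from percentile 99.7 to 78.4, and ARLNC1 from 31.4 to 14.6. Genes with a short RefSeq span moved the other way, DRAIC from percentile 91.9 to 97.7 and PCAT1 from 97.0 to 99.3. Both ranks per kb hold only if reads were counted over those spans. In vehicle cells the density was 23.7 ± 1.98 CPM per kb for PCAT1, 12.3 ± 1.75 for DRAIC, 11.1 ± 0.151 for MIR99AHG, 2.60 ± 0.0805 for SCHLAP1 and 0.646 ± 0.0851 for PCA3 (SD, n = 2 each). The span over which the authors counted is not given in the sources used here, and where their gene model is longer than that of RefSeq the density of a gene is overstated. ARLNC1, PCAT14 and PCGEM1 had densities of 0.0427, 0.0729 and 0.0267 CPM per kb, below the median of 0.704 CPM per kb over the genes tested.

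**Figure D2:**
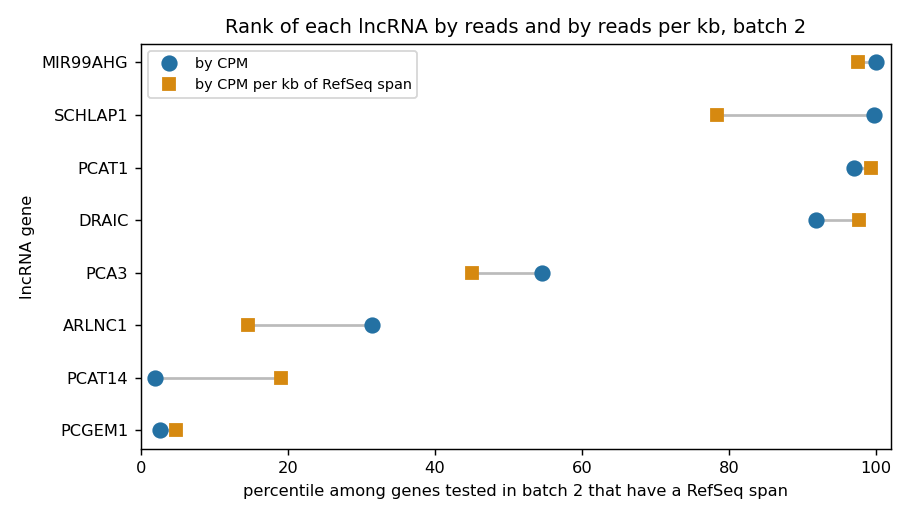
Percentile of each lncRNA (horizontal axis, 0 to 100) in batch 2, by CPM (circles) and by CPM per kb of RefSeq span (squares). Circles are among all 28651 genes tested, and squares among the 20511 of them with a span of 1 kb or more. The axis label names the set of the squares. SCHLAP1 drops from 99.7 to 78.4 when its 225 kb are taken into account, whereas MIR99AHG stays above 97.

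DRAIC was the lncRNA that passed the test after IR in batch 1. Its 2 mock samples lay above its 2 irradiated samples, 147 and 153 CPM against 94.96 and 113 CPM, and it fell by 0.52 on the log2 scale (SE 0.12, edgeR adjusted p 0.0362). The ranges also stayed apart across the 8 single libraries, with 134 to 144 CPM in mock and 86.0 to 121 CPM in irradiated libraries. In batch 2 it was lower in both irradiated samples with vehicle (log2 fold change -0.27, SE 0.12) and with enzalutamide (-0.25, SE 0.12), without passing (edgeR adjusted p 0.431 and 0.56). With the replicate number as a block it passed in vehicle cells (-0.27, adjusted p 0.0201) and not in enzalutamide cells (adjusted p 0.0539). Over both batches without enzalutamide, which reuses the batch 1 samples, DRAIC fell by 0.41 (SE 0.0859, 95% interval -0.59 to -0.23, edgeR adjusted p 0.00621). Its response did not pass a test of difference between the batches (-0.27, SE 0.17, adjusted p 0.905). The call in batch 1 was lost without irradiated replicate 1 (adjusted p 0.48) or 2 (0.113), with the t1 libraries alone (0.0776) and with t as a covariate (0.14). That over both batches was lost without vehicle replicate 3 (0.0622), with t1 alone (0.11) and with t2 alone (0.0649), the fold change staying between -0.48 and -0.33 over the 15 alternatives.

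SCHLAP1, like DRAIC, was lower in both irradiated samples than in both unirradiated ones in each of the 3 arms. This was the case for 20.7% of all genes tested in batch 1, 22.6% in vehicle cells and 20.9% in enzalutamide cells. Over both batches SCHLAP1 fell by 0.31 on the log2 scale (SE 0.0846, edgeR adjusted p 0.0389). In vehicle cells its log2 fold change was -0.37 (SE 0.11, edgeR adjusted p 0.184), and with the replicate block it passed (adjusted p 0.0129). In enzalutamide cells it was -0.32 (SE 0.11, adjusted p 0.347), and with the block it passed there too (-0.31, adjusted p 0.0495). In batch 1 it was -0.24 (SE 0.16, adjusted p 0.664). Beside these values, genes of 200 kb or more, SCHLAP1 among them, held 17.6% and 17.8% of the counts in the vehicle libraries. After IR with vehicle they held 16.5% and 16.6%, so that the share moved with SCHLAP1, and the part of the share in the result was not tested. The call over both batches did not hold with RLE size factors (adjusted p 0.0985), nor without any one of 7 of the 8 samples (0.1 to 0.198), mock replicate 1 being the exception. With the t2 libraries alone its direction turned (0.18, adjusted p 0.591), and with t1 alone it was -0.78 (adjusted p 0.0208).

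The t libraries of batch 1 decided the direction for SCHLAP1 and MIR99AHG, as they did for PCA3 and PCAT1, described below. SCHLAP1 was at 775 and 958 CPM in the t1 mock libraries and at 441 and 374 CPM in the t1 irradiated libraries. In the t2 libraries the order was the opposite, with 510 and 443 CPM in mock and 767 and 825 CPM after IR. From t1 alone its log2 change was -1.15 (SE 0.23, edgeR adjusted p 0.00286) and from t2 alone it was 0.73 (SE 0.13, adjusted p 0.000615). MIR99AHG had the same pattern, with 5725 and 7129 CPM in t1 mock, 3912 and 3820 in t1 irradiated, 4222 and 3601 in t2 mock, and 6029 and 7023 CPM in t2 irradiated libraries. Its change was -0.80 (SE 0.34, adjusted p 0.108) from t1 alone and 0.73 (SE 0.15, adjusted p 0.0016) from t2 alone, while the summed samples gave -0.07 (SE 0.23, adjusted p 0.959). Of all 21930 genes tested from t2 alone, 9800 passed, so passing there was common. SCHLAP1 and MIR99AHG were high in the same libraries as the share of counts in genes of 200 kb or more. That share includes the reads of both. Mitochondrial genes too took more counts in t1 mock and t2 irradiated libraries (4.25% to 5.38%) than in the other 4 (2.86% to 3.94%). The part of these differences between libraries in the IR values of batch 1 was not tested. Nor was it tested whether a t number marks like libraries in both arms: by these shares t1 mock libraries lay nearer to t2 than to t1 irradiated ones, and the values from t1 alone, from t2 alone and with t as a covariate depend on that labelling.

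**Figure D3:**
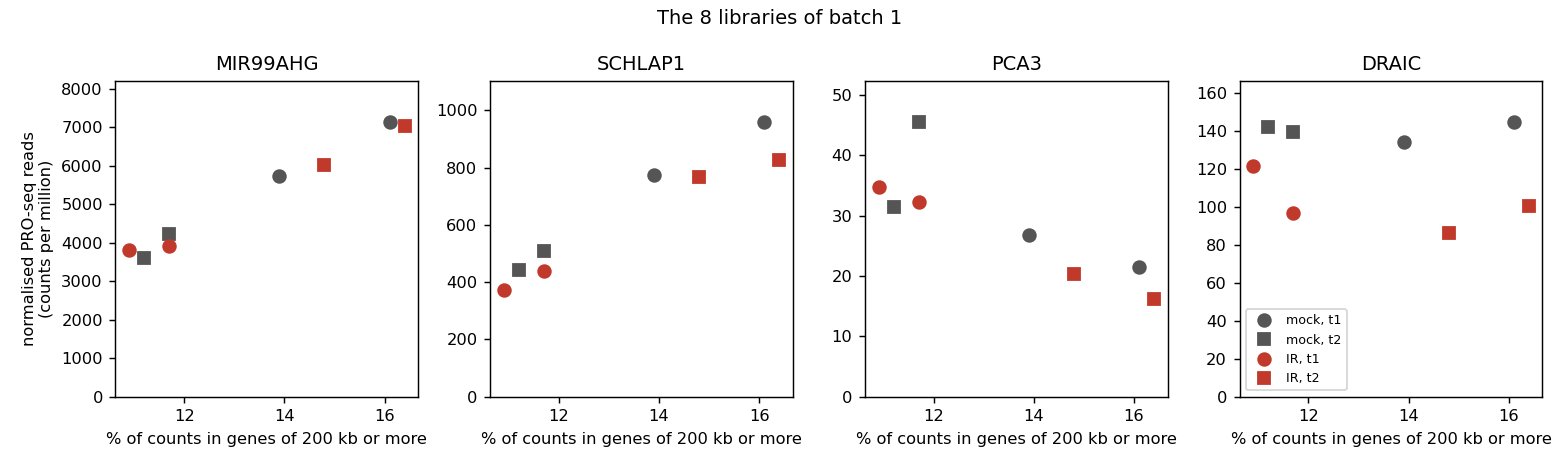
Normalised PRO-seq reads (CPM, vertical axes from 0) of 4 lncRNAs in the 8 libraries of batch 1 against the share of counts in genes of 200 kb or more (percent, horizontal axis). Grey is mock, red is IR, circles are t1 and squares are t2. The share includes the reads of MIR99AHG and SCHLAP1. MIR99AHG and SCHLAP1 are high where the share is high whatever the treatment, PCA3 is low there, and the 4 irradiated DRAIC values (86.0 to 121 CPM) lie below the 4 mock values (134 to 144 CPM).

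MIR99AHG passed no test for IR with t1 and t2 summed. Its log2 change was -0.17 (SE 0.13, edgeR adjusted p 0.639) in vehicle cells, where both irradiated samples were lower, and -0.18 (SE 0.13, adjusted p 0.712) in enzalutamide cells, where the samples overlapped. The 95% interval in vehicle cells ran from -0.45 to 0.10. Reads over its microRNA hairpins, which span 0.081 to 0.089 kb, were few. In vehicle cells MIR99A was at 1.96 and 3.56 CPM, MIRLET7C at 4.45 and 3.21, and MIR125B2 at 2.26 and 1.66. Per kb these were means of 34.1, 45.6 and 22.0 CPM, above the 11.1 CPM per kb of MIR99AHG. None of the hairpins passed in any comparison, and how reads shared with the host gene were assigned is not given in the sources used here.

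PCA3 passed no IR comparison with all samples, t1 and t2 summed and no replicate block. In batch 2 both irradiated samples with vehicle (10.5 and 11.98 CPM) were below both vehicle samples (16.3 and 13.6 CPM), with a log2 fold change of -0.41 (SE 0.19, edgeR adjusted p 0.453). Over both batches it was -0.38 (SE 0.12, adjusted p 0.0773). In the single libraries of batch 1 PCA3 ran against SCHLAP1, at 26.8 and 21.6 CPM in t1 mock, 32.3 and 34.7 in t1 irradiated, 45.5 and 31.5 in t2 mock, and 20.3 and 16.2 CPM in t2 irradiated libraries. Its log2 fold change was 0.42 in t1 alone (edgeR adjusted p 0.0906) and -1.13 in t2 alone (adjusted p 0.000218), where 9800 of all 21930 genes passed. It also passed without mock replicate 2, in batch 1 (-0.60, adjusted p 0.00235) and over both batches (-0.50, adjusted p 0.0117), and over both batches with t2 alone (-0.75, adjusted p 0.0462). PCA3 lies within PRUNE2 (chr9:76611376-76906114), a protein-coding gene that is known to be transcribed from the opposite strand. PRUNE2 had 672 and 741 CPM in vehicle, 2.397 CPM per kb against 0.646 for PCA3, and the use of strand in counting is not given in the sources used here, so part of the PCA3 counts may come from PRUNE2. PRUNE2 passed no IR test (both batches -0.18, SE 0.10, edgeR adjusted p 0.404), and in the libraries of batch 1 it moved with SCHLAP1 (348 and 486 CPM in t1 mock, 226 and 267 CPM in t1 irradiated) and not with PCA3.

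PCAT1 had log2 fold changes of -0.15 (SE 0.13) in vehicle cells, -0.12 (SE 0.13) in enzalutamide cells and -0.14 (SE 0.13) in batch 1. Its samples, with t1 and t2 summed, overlapped in all 3 (edgeR adjusted p 0.691 to 0.819). In batch 1 its direction turned between the t libraries. PCAT1 was at 253 and 285 CPM in t1 mock and at 204 and 204 CPM in t1 irradiated libraries. In t2 it was at 199 and 210 CPM in mock and at 237 and 251 CPM after IR. From t2 alone its log2 change was 0.24 (SE 0.12, edgeR adjusted p 0.115). The 95% interval over both batches ran from -0.31 to 0.01. PRNCR1, another lncRNA gene 58.9 kb from PCAT1, fell over both batches by 0.51 (SE 0.11, edgeR adjusted p 0.00554). PRNCR1 was at 32.7 and 39.4 CPM in mock and 27.5 and 29.6 after IR, and at 12.9 and 11.99 CPM in vehicle and 8.37 and 6.63 after IR. Its irradiated samples lay below their controls in both batches.

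ARLNC1, PCAT14 and PCGEM1 gave wide intervals. ARLNC1 was at 3.46 and 2.95 CPM with enzalutamide and 1.88 and 2.29 with enzalutamide and IR, a log2 change of -0.60 (SE 0.28, edgeR adjusted p 0.522), against -0.13 (SE 0.27) in vehicle cells. PCAT14 went from 2.84 and 2.05 CPM in mock to 1.45 and 1.57 after IR (-0.67, SE 0.33, adjusted p 0.474). PCGEM1 was the one lncRNA of the 8 with a positive value for IR in batch 1, at 0.646 and 1.03 CPM in mock and 1.53 and 1.25 after IR, or 5 and 9 against 19 and 20 counts (0.70, SE 0.42, adjusted p 0.614). In vehicle cells of batch 2 its value was -0.54 (SE 0.47), and the difference between batches, 1.22 (95% interval -0.14 to 2.59), did not pass (edgeR adjusted p 0.89). The 95% intervals for IR in vehicle cells, -1.55 to 0.46 for PCGEM1 and -1.66 to 0.66 for PCAT14, include a 2-fold fall.

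Read against all genes, the count of these 8 that passed after IR was 0 in vehicle cells, where 1.1% of 28651 genes passed, 0 in enzalutamide cells (0.918%), 1 in batch 1 (2.82% of 25889 genes) and 2 over both batches (4.05% of 29195 genes). Before adjustment, the number of the 8 with a p under 0.05 was 2 in vehicle cells (11% of all genes), 2 in enzalutamide cells (9.49%), 1 in batch 1 (11.5%) and 4 over both batches (16.1%). DESeq2 gave 0, 0, 1 and 2 in the same order, against 1.33%, 1.06%, 2.26% and 4.04% of all genes. The signs were mostly negative: 8 of 8 were lower in vehicle cells (median log2 change -0.32, against -0.01 over all genes tested), 7 of 8 in enzalutamide cells (-0.22 against -0.01), and 7 of 8 in batch 1 (-0.28 against -0.0021). In vehicle cells the irradiated samples of 4 of the 8, PCA3, SCHLAP1, DRAIC and MIR99AHG, were both below both vehicle samples, which was the case for 22.6% of all genes tested. With the replicate block 2 of the 8 passed in vehicle cells and 1 in enzalutamide cells, where 4.59% and 3.32% of all genes passed. The 2 IR comparisons of batch 2 share a model but no samples, while the both-batch comparison contains the samples of 2 others.

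**Figure D4:**
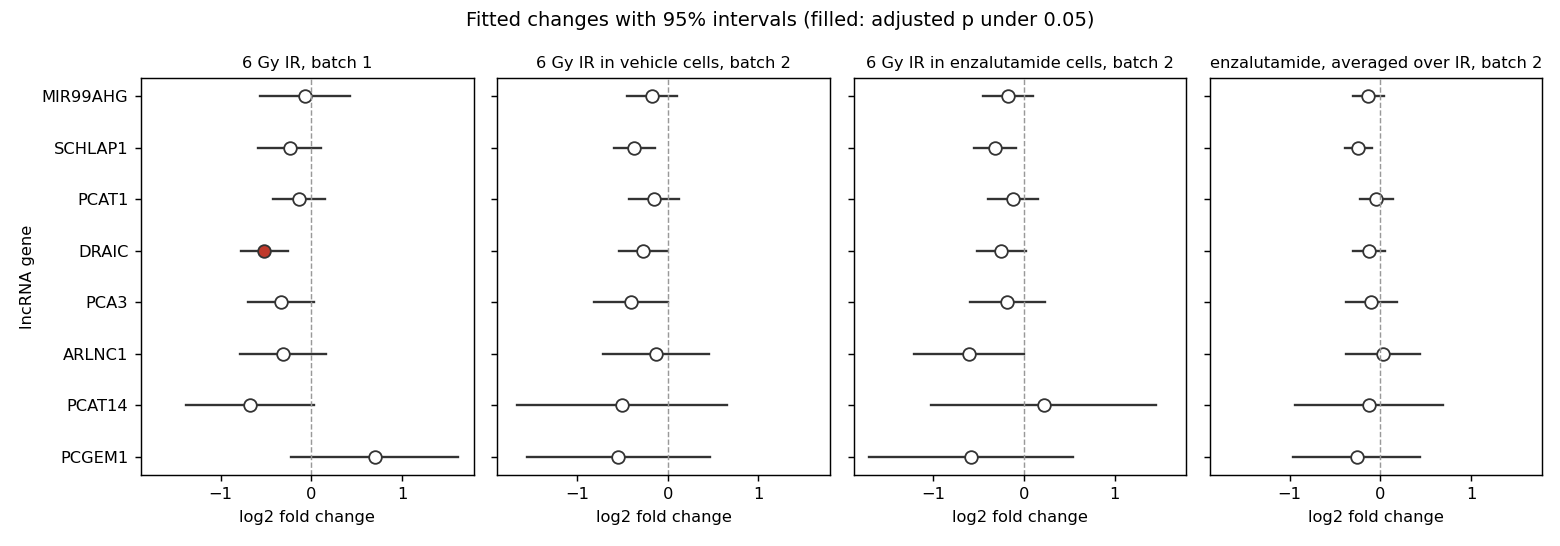
Log2 fold changes (horizontal axes) of the 8 lncRNAs with 95% intervals from edgeR for IR in batch 1, IR in vehicle cells, IR in enzalutamide cells and enzalutamide averaged over IR. A filled point has an adjusted p under 0.05, which DRAIC in batch 1 reached (-0.52), and the intervals of PCAT14 and PCGEM1 are the widest in each panel.

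Enzalutamide was compared with vehicle without IR, with IR, and averaged over both. SCHLAP1 had the lowest p of the 8 in all 3. It was at 573 and 598 CPM in vehicle against 547 and 428 with enzalutamide, and at 465 and 444 CPM after IR against 373 and 399 with both. Each enzalutamide sample was thus below each control sample in both settings, as was the case for 11.6% (without IR) and 17.3% (with IR) of all genes tested, and the averaged log2 change was -0.24 (SE 0.0681, 95% interval -0.39 to -0.10) with an edgeR adjusted p of 0.544. With the replicate block it passed (-0.24, adjusted p 0.0368). Genes of 200 kb or more, SCHLAP1 among them, held 17.1% and 16.5% of counts with enzalutamide and 15.2% and 15.9% with both agents. Against these stood 17.6% and 17.8% in vehicle and 16.5% and 16.6% after IR, and the part of this share in the SCHLAP1 value was not tested.

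The other 7 gave averaged values nearer to 0 or with wide intervals. PCGEM1 had an averaged log2 change of -0.26 (SE 0.33, edgeR adjusted p 0.931), with 10 and 17 counts in vehicle against 11 and 8 with enzalutamide. ARLNC1 had 0.03 (SE 0.19, 95% interval -0.38 to 0.44, adjusted p 0.992), PCA3 -0.10 (SE 0.13, adjusted p 0.934) and DRAIC -0.12 (SE 0.0808, adjusted p 0.863). MIR99AHG had -0.13 (SE 0.0779), PCAT1 -0.04 (SE 0.0848) and PCAT14 -0.12 (SE 0.38). The 95% interval of PCAT1, -0.23 to 0.14, reached the least far from 0 among the 8.

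None of the 8 passed by edgeR for enzalutamide without IR (0.0105% of all genes passed), with IR (0.0105%) or averaged over IR (0.0628%). Before adjustment, 1, 0 and 1 of the 8 had a p under 0.05, SCHLAP1 both times, against 2.56%, 3% and 6.21% of all genes. DESeq2 gave 0 of the 8 in all 3, against 0.0454%, 0.0244% and 0.202% of all genes, and the block gave 1 for the average, against 0.949%. For comparison, a list of 24 protein-coding androgen receptor targets was used. It was chosen with earlier results of these data known and is no independent reference. Its median averaged change was -0.35, with 23 lower and 8 past the threshold, all lower. The 6 with the smallest p were SLC45A3 (-0.57), ZBTB10 (-0.55), TMPRSS2 (-0.58), ELL2 (-0.44), PMEPA1 (-0.53) and C1orf116 (-0.57). KLK3 (-0.66, SE 0.21, edgeR adjusted p 0.69) and FKBP5 (-0.26, SE 0.0546, adjusted p 0.22), which encodes a chaperone of steroid receptors, did not pass. The 8 lncRNAs had a median of -0.12, with 7 lower, and all genes tested had a median of 0.00074. After IR over both batches, 20 of the 24 receptor targets were lower and 4 higher (median -0.19); 6 of the lower and 1 of the higher ones passed, where 4.05% of all genes did.

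Whether IR acted differently under enzalutamide was tested with the interaction. By edgeR 0 of the 8 and 0% of all genes passed, with 0 of the 8 and 343 of all genes (1.2%) at an unadjusted p under 0.05, and DESeq2 gave 0 for both. The interaction was 0.03 (SE 0.17) for DRAIC, 0.05 (SE 0.15) for SCHLAP1 and -0.01 (SE 0.18) for MIR99AHG, with 95% intervals that reach 0.40 in size at most. ARLNC1 (-0.48, SE 0.39) and PCAT14 (0.72, SE 0.78) had larger values with intervals from -1.31 to 0.36 and from -0.98 to 2.41. For the difference in the IR response between batches, 0.106% of all genes passed by edgeR and by DESeq2 and none of the 8 did by either. None of the 8 had an unadjusted p under 0.05, against 5.66% of all genes.

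The unirradiated, untreated groups of the 2 batches differed in level. Mock was above vehicle for 7 of the 8, by 3.65-fold for PCAT14, 2.32-fold for ARLNC1, 2.27-fold for PCA3, 1.36-fold for PCAT1, 1.25-fold for DRAIC and SCHLAP1 and 1.16-fold for PCGEM1, and below it for MIR99AHG (0.904-fold). Their median log2 ratio was 0.39, against 0.02 over 29195 genes, of which 14994 were higher in mock. The lower and upper quartiles of those genes were -0.41 and 0.59. PCAT14 held 22 and 18 counts in mock and 15 and 9 in vehicle, and PCGEM1 held 5 and 9 against 10 and 17. KLK3, an androgen receptor target, averaged 186 CPM in mock and 15 CPM in vehicle. The receptor targets as a list were mixed. Of the 24 listed, 15 were higher in mock, with a median log2 ratio of 0.08 and quartiles of -0.17 and 0.65. FKBP5 (216 CPM in mock, 152 in vehicle) was among those higher in mock. KLK2 (176 CPM in mock, 210 in vehicle) and TMPRSS2 (427 and 466) were among those lower in mock. Mock cells were named without vehicle, and batch and treatment cannot be told apart here.

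Other lncRNAs known from prostate cancer were examined as a list of 40, of which 36 were matched and 32 to 34 tested. None passed in the single IR comparisons. Over both batches NEAT1, the scaffold of paraspeckles, rose (0.55, SE 0.0998, edgeR adjusted p 0.00144), and PRNCR1 and TMPO-AS1 (-0.39, SE 0.0903, adjusted p 0.0126) fell. For enzalutamide averaged over IR CTBP1-AS fell (-0.48, SE 0.0692, adjusted p 0.0165), the one of the list to pass, with a median of -0.01 over the list. TMPO-AS1 and CTBP1-AS are antisense genes, whose counts are uncertain without strand. Of 26 microRNA host genes, 24 were matched and 18 tested, and MIR34AHG, the host of the p53-induced miR-34a, was the one that passed. It rose after IR by 1.39 in vehicle cells, 1.41 in enzalutamide cells and 1.83 in batch 1 (edgeR adjusted p 1.78e-06 to 1.94e-06), against -0.17, -0.18 and -0.07 for MIR99AHG. The p53 targets used to check irradiation rose in all 12 cases in each of these comparisons, with medians of 1.9, 1.84 and 2.23. Among them MDM2, the ubiquitin ligase that restrains p53, rose by 2.10 in vehicle cells and by 3.11 in batch 1.

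Genes whose levels were most like those of the 8 were sought among about 15960 genes with a symbol and a mean of at least 50 counts, by Pearson's r of log CPM over the 8 libraries of batch 2. These r values are descriptions over 8 libraries that share treatments and depth. Those of batch 1 also take in the split between the t libraries given above, whose part in them was not tested. For MIR99AHG the genes most like it were LINC01473 (0.989) and TBC1D5 (0.978), and in the 8 libraries of batch 1 their r was 0.964 and 0.958. For DRAIC they were SCOC-AS1 (0.984, and 0.622 in batch 1) and AMOTL1 (0.98, and 0.869). For SCHLAP1 they were STEAP2-AS1 (0.985) and NR2F2 (0.972), but in batch 1 their r was 0.256 and -0.319. The same loss was seen for PCAT1 with SUPT20H (0.988, and -0.0439 in batch 1), less so with DNASE2B (0.998, and 0.532), and for PCA3 with HNF4G (0.949, and -0.166) and OSER1-DT (0.948, and 0.257). For the genes with few reads they were ST7-OT4 and NRCAM (PCGEM1), MARF1 and RNU1-1 (ARLNC1) and LRRK1 and LGALSL (PCAT14), at r between 0.938 and 0.977 in batch 2 and between -0.502 and 0.329 in batch 1. Among the 8 themselves SCHLAP1 and MIR99AHG had r of 0.941 in batch 2 and 0.972 in batch 1, whereas PCA3 and MIR99AHG had 0.532 and -0.832. In the same order of batches PCAT1 had 0.644 and 0.93 with SCHLAP1 and 0.716 and 0.894 with MIR99AHG.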

How the data were processed

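For each batch the authors deposited a table of unnormalized read counts by Ensembl gene, judged from its values, which are whole numbers. Per the submitters' processing notes cutadapt 1.8.1, Bowtie2 2.4.4, SAMtools 1.9 and build hg38 were used; the counting tool, gene span, use of strand and duplicate removal are not given in the sources used here. Of 60605 identifiers 18577 have no symbol. Symbols came from a table of gene names, and positions, spans, promoters and microRNAs from RefSeq (GRCh38.p14), counted from 1.

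The t1 and t2 libraries of a replicate were summed. Counts were tested with edgeR 4.0.16 in R 4.3.3 (filterByExpr defaults, TMM factors, quasi-likelihood, two-sided, Benjamini-Hochberg over all genes tested, threshold 0.05): 1 model with the interaction over the 4 groups of batch 2, an additive one for enzalutamide averaged over IR, 1 for batch 1, and 1 over both batches without enzalutamide, with batch as a covariate. Alternatives were RLE factors, library totals, no filter, DESeq2 1.42.0, a replicate block, each sample left out, and the t libraries apart or with t as a covariate. The script was tested on simulated counts. CPM per library in batch 1 are scaled over 16 libraries.

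The labels number the replicates alike in the groups of a batch. In batch 2 the deviations of same-numbered samples correlated across genes at 0.102 to 0.262 in all 6 pairs of groups, so the block is printed where it changed a call. In batch 1 there was 1 pair (0.198).

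The 8 genes and all lists were chosen with earlier results of these data known. Named genes are the 8, their neighbours and microRNAs, up to 6 listed genes per list with the smallest p past the threshold, KLK3, TMPRSS2, FKBP5, CDKN1A and MDM2, and the 2 genes most like each of the 8.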

Additional observations from a re-analysis of the deposited data

Results flagged for a closer look

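The IR response of MDM2, a p53 target used to check irradiation, differed between the batches by 0.989 on the log2 scale (batch 1 minus batch 2, SE 0.17, edgeR adjusted p 0.0268): it rose by 3.11 in batch 1 and by 2.10 in vehicle cells of batch 2. None of the 8 lncRNAs passed this test.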

How the results depend on the processing

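For the 8 members over 9 comparisons, 954 alternatives were fitted: 918 stayed on their side of the threshold, 18 gained it and 15 lost it. In 76 of the 918, past the threshold under neither setting, the sign changed, mostly when a sample was left out or with t1 or t2 alone. The other 3 changed sign and were past the threshold in the main or the alternative setting, each time with the t2 libraries alone: SCHLAP1 in batch 1 (0.731) and over both batches (0.175), and MIR99AHG in batch 1 (0.729), the cause being not tested. The number of members past the threshold was 1 for IR over both batches with RLE factors. Without a filter it was 1 for IR in vehicle cells and 1 for enzalutamide averaged over IR, SCHLAP1 in both. The replicate block gave 2 for IR in vehicle cells, 1 in enzalutamide cells, 1 for enzalutamide averaged over IR and 2 in batch 1, where PCA3 joined DRAIC (-0.32, edgeR adjusted p 0.0353). PCA3 also passed with the block over both batches (-0.37, adjusted p 0.0246), and apart from these and the calls of SCHLAP1 and DRAIC given in the report the block changed no call of the 8. Batch 1 gave 4 with the t2 libraries alone, where 9800 of all 21930 genes tested passed. With t as a covariate it gave 0, where 313 of 21976 passed. Both batches gave 1 with t1 alone and 1 with t2 alone, the latter where 657 of all 27773 genes tested passed. The difference between batches gave 2 with t2 alone (SCHLAP1 and MIR99AHG), where 5646 of 27773 passed. Leaving out each replicate gave 0 to 2 members in batch 1, 0 to 2 over both batches, 0 to 1 for IR in vehicle cells and 0 to 1 in enzalutamide cells. Where an arm was left with 1 sample, that sample was assumed to vary like the others. PCA3 passed in batch 1 (-0.60, adjusted p 0.00235) and over both batches (-0.50, adjusted p 0.0117) without mock replicate 2.

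Counts over all genes also moved. IR in vehicle cells gave 314 genes, with a range of 294 to 1315 over the settings that keep all samples or all of t1 or t2, IR in enzalutamide cells 263 (243 to 951), batch 1 731 (313 to 9800, the highest with t2 alone), both batches 1182 (657 to 1954) and their difference 31 (27 to 5646, the highest with t2 alone). Enzalutamide averaged over IR gave 18 (17 to 272), without IR 3 (3 to 74), with IR 3 (2 to 64) and the interaction 0 (0 to 32). With 2 replicates a group, PCAT14 and PCGEM1, at 4 to 25 counts a sample, had SEs of up to 0.78 for the interaction, and their 95% intervals included a 2-fold fall after IR in vehicle cells.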
